A study of Mus musculus with 5 samples.

Results

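Interleukin-1 and inflammasome genes were followed through the blood cells of this series as 10 genes listed by symbol. These were Il1a, Il1b, Il18, Il1rn, Il1r2, Il1rap, Nlrp3, Pycard, Casp1 and Casp4. They were chosen for their place in the pathway, with earlier results of these data known. All 10 were found by exact name, among 34315 features of the granulocyte tables and 38166 features of the stem and progenitor cell tables. PolyA-selected RNA of C57BL/6 mice was sequenced in 5 libraries. The granulocytes were Gr1+ bone marrow cells of 12-month-old mice, sorted without culture, and their 2 libraries are technical replicates of 1 biological sample (n = 1). The KSL cells were bone marrow cells positive for c-Kit and Sca-1 and negative for lineage markers, a population of blood stem and early progenitor cells. The donor mice had received 5-fluorouracil, a drug toxic to cycling cells. Their Sca-1+ cells were infected with a retrovirus carrying green fluorescent protein and grown for 2 days in medium with added growth factors, among them SCF at 10 ng/ml, before KSL cells with the fluorescent marker were sorted. The virus was a knockdown of the long non-coding RNA LncHSC-1, a knockdown of LncHSC-2 or a knockdown control, with 1 library each. All 3 KSL groups thus share 5-fluorouracil, infection and culture, which the granulocytes lack. The strength of each knockdown was not analysed here.

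Interleukin-1 is an early inflammatory signal that drives emergency production of myeloid cells in bone marrow. Interleukin-1 alpha and beta bind the same receptor, which signals only once the accessory protein encoded by Il1rap has joined it; Il1rn encodes a soluble antagonist that occupies the receptor, and Il1r2 a decoy receptor that binds the cytokine without signalling. Interleukin-1 beta and interleukin-18 are made as inactive precursors that caspase-1 cuts. Caspase-1 is itself activated in the inflammasome, a complex of a sensor such as the Nlrp3 protein with the adaptor encoded by Pycard, while the product of Casp4 is activated by bacterial lipopolysaccharide inside the cell.

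The promoters of 4 members are shown as examples. Il1a and Il1b are neighbours on chromosome 2, with 54607 bases between them in mm9, and had very unequal levels in granulocytes; Casp1 and Pycard were well detected in both cell kinds. The sequences are those of RefSeq on GRCm38.p6, a later build than the mm9 of the deposited tables. Each covers the 250 bases before the annotated start, at chr2:129309973-129310222 on the minus strand for Il1a, chr2:129371140-129371389 on the minus strand for Il1b, chr9:5298267-5298516 on the plus strand for Casp1 and chr7:127993868-127994117 on the minus strand for Pycard. Capitals mark matches, on either strand, to the TATA box TATAAA and to short cores of the recognition sequences of myeloid and interferon-linked factors: GAGGAA for PU.1, TTNNGNAA for C/EBP and AANNGAAA for IRF proteins.
Il1a: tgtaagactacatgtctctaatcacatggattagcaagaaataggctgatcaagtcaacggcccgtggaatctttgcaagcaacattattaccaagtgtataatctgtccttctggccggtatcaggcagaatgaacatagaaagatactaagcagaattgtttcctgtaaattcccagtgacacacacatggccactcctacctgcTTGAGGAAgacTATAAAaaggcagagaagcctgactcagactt
Il1b: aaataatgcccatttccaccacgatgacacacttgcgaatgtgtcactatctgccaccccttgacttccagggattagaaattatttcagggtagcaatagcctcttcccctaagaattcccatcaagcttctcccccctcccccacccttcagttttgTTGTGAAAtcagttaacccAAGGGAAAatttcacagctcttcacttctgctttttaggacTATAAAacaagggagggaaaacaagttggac
Casp1: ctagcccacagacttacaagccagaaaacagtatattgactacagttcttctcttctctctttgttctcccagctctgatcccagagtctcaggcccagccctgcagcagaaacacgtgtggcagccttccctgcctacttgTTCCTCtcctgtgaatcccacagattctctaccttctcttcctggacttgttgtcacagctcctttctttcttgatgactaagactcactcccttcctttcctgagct
Pycard: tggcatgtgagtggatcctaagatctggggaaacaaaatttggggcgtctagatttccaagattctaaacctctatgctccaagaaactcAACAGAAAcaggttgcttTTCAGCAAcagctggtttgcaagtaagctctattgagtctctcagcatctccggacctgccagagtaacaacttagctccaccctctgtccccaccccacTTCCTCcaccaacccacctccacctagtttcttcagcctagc
A TATAAA match began 32 bases before the start of Il1a and 31 bases before that of Il1b, and none lay in the Casp1 and Pycard windows. Of all 10 members, 3 had such a match. The third was Il18, on the other strand 175 bases before its start. No window of Il1rn, Il1r2 or Nlrp3 held TATAAA, so the word did not follow the granulocyte level. The Il1a window also held an overlapping TTNNGNAA and GAGGAA, 43 and 41 bases before the start, and the Il1b window held TTNNGNAA at 91 and AANNGAAA at 72 bases. Casp1 had 1 GAGGAA match, on the other strand 108 bases before the start. Pycard had AANNGAAA at 160, TTNNGNAA at 142 and GAGGAA, on the other strand, at 42 bases. Such short words are common: of 32851 promoter windows of this length, 12.4% held TATAAA, 23.3% GAGGAA, 36.9% TTNNGNAA and 21.3% AANNGAAA. A match describes the letters and is not evidence of binding.

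Levels are in FPKM, fragments per kilobase of transcript scaled to sequencing depth, as deposited. Estimated depths were 37.9 and 46.7 M reads for the granulocyte libraries and 19.9 to 24.1 M reads for the KSL libraries. The granulocyte sample was at 5 FPKM or more for 12 of 12 mature granulocyte markers and for 1 of 9 stem and progenitor markers. Each KSL library reached that level for 9 of 9 stem and progenitor markers. Each also reached it for 5 of 12 mature granulocyte markers and 7 of 13 monocyte, macrophage and dendritic markers. All 5 primary granule markers reached it in the granulocytes and in each KSL library. In bulk RNA, fewer cells of a type and less RNA per cell cannot be told apart. With 1 sample or library per group there is no test of any difference between groups, and intervals given here are 95% intervals that cover counting error only.

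In granulocytes the members spanned more than 3 orders of magnitude, from Il1b, the highest, to Il1a, the lowest. Of the 10 members, 8 reached 5 FPKM. In KSL cells the order was different: the caspases and their adaptor were highest, and the interleukin-1 ligands, the antagonist, the decoy receptor and the sensor Nlrp3 were all under 2 FPKM.

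Among the cytokines, Il1b (chr2:129190316-129196856, minus strand, mm9) stood at 409.5 and 408 FPKM in the granulocyte replicates, against 1.36 FPKM in the LncHSC-1, 1.29 FPKM in the LncHSC-2 and 1.59 FPKM in the control KSL library. The granulocyte replicates were far above all 3 KSL libraries, and Il1b ranked at percentile 99.6 of the expressed genes in granulocytes and at percentile 40.8 in the control KSL library. Il1a (chr2:129125346-129135708, minus strand) was at 0.295 and 0.336 FPKM in the granulocyte replicates, against 0.563, 0.228 and 0.283 FPKM in the LncHSC-1, LncHSC-2 and control KSL libraries. The granulocyte values of Il1a lay inside the range of the KSL libraries, which rested on 30.1, 9.89 and 13 estimated reads. Per unit length the granulocytes thus held 1297 times as much Il1b as Il1a RNA. Il18 (chr9:50373473-50389942, plus strand) had the reverse pattern to Il1b, with 1.98 and 2.60 FPKM in the granulocyte replicates, against 11.3 FPKM in the LncHSC-1, 8.98 FPKM in the LncHSC-2 and 8.51 FPKM in the control KSL library. Both granulocyte values of Il18 were below all 3 KSL values.

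The inhibitors followed Il1b. Il1rn (chr2:24192380-24207011, plus strand) was at 86.3 and 87.5 FPKM in the granulocyte replicates, against 0.282, 0.270 and 0.306 FPKM in the LncHSC-1, LncHSC-2 and control KSL libraries. Il1r2 (chr1:40141613-40182070, plus strand) was at 109 FPKM in both granulocyte replicates, against 1.17, 0.955 and 0.935 FPKM in the LncHSC-1, LncHSC-2 and control KSL libraries. For both genes the granulocyte and KSL values did not overlap. Here and for the other members, such statements describe the libraries only. The share of all genes without overlap is not given, and most genes differed in level between the cell kinds. The KSL values of Il1rn were 19, 15 and 18 estimated reads and those of Il1r2 were 41, 27 and 28. The ratio of Il1b to its antagonist Il1rn was 4.70 in granulocytes and 4.84, 4.78 and 5.19 in the LncHSC-1, LncHSC-2 and control KSL libraries, although both genes were more than 100-fold apart between the cell kinds. The KSL ratios carry no interval and rest on few reads, with 47, 36 and 47 for Il1b. In the control the counting intervals were 1.17 to 2.12 FPKM for Il1b and 0.182 to 0.484 FPKM for Il1rn. Whether the ratio is alike in both cell kinds was not tested.

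The accessory receptor chain Il1rap (chr16:26581791-26725233, plus strand) was at 8.14 and 7.99 FPKM in the granulocyte replicates, against 5.64 FPKM in the LncHSC-1, 5.17 FPKM in the LncHSC-2 and 5.88 FPKM in the control KSL library. It was thus moderate in both cell kinds, but its values are not on 1 scale. The granulocyte tables divide by 8474 bases, where the KSL values correspond to an effective length 0.524 times as long; for the other members that ratio was 0.875 to 1.03. Per the KSL length the granulocyte mean of Il1rap would be 15.4 FPKM.

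The inflammasome members split between sensor and effectors. Nlrp3 (chr11:59356188-59380458, plus strand) was at 36.8 and 36.6 FPKM in the granulocyte replicates, against 0.298, 0.378 and 0.358 FPKM in the LncHSC-1, LncHSC-2 and control KSL libraries. The KSL values rest on 34, 35 and 35 estimated reads, and the cell kinds did not overlap. Pycard (chr7:135134887-135137381, minus strand) was at 11.1 and 11.0 FPKM in the granulocyte replicates, against 27.1, 26.98 and 24.9 FPKM in the LncHSC-1, LncHSC-2 and control KSL libraries. Casp1 (chr9:5298517-5307281, plus strand) was at 26.5 and 29.3 FPKM in the granulocyte replicates, against 45.9, 46.0 and 43.8 FPKM in the LncHSC-1, LncHSC-2 and control KSL libraries. Casp4 (chr9:5308860-5336791, plus strand), which begins 1578 bases after the end of Casp1, was at 22.4 and 23.1 FPKM in the granulocyte replicates, against 52.8, 50.2 and 47.0 FPKM in the LncHSC-1, LncHSC-2 and control KSL libraries. On the deposited scale these 3 genes were lower in both granulocyte replicates than in any KSL library. The median gene at 5 FPKM or more in both cell kinds was itself lower on that scale. It was at 0.636 times control KSL cells, and the granulocyte mean of Casp1 was at 0.636 times as well. Casp1 RNA was 0.760 times the level of Nlrp3 RNA in granulocytes and 154, 122 and 123 times that level in the LncHSC-1, LncHSC-2 and control KSL libraries.

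**Figure D1:**
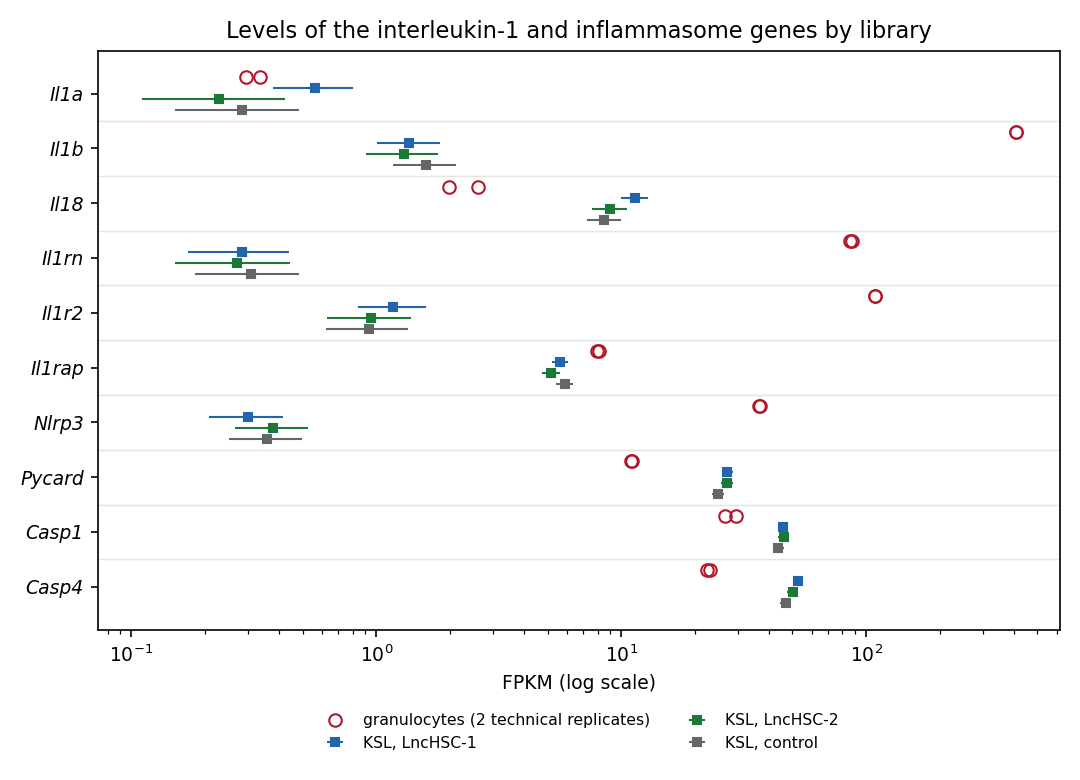
FPKM of each member by library on a log axis; open circles are the 2 technical replicates of the granulocyte sample, squares the 3 KSL libraries with 95% Poisson intervals of their estimated reads, which cover counting error only. Il1b, Il1rn, Il1r2 and Nlrp3 sit far to the right in granulocytes, Il18, Pycard, Casp1 and Casp4 sit to the right in the KSL libraries, and Il1a overlaps.

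The order of the members was the same in both granulocyte replicates: Il1b, Il1r2, Il1rn, Nlrp3, Casp1, Casp4, Pycard, Il1rap, Il18 and Il1a. In the control KSL library it was Casp4, Casp1, Pycard, Il18, Il1rap, Il1b, Il1r2, Nlrp3, Il1rn and Il1a. Not all neighbours in that order were apart. The counting intervals of Casp4 and Casp1 overlapped in the control KSL library, at 44.7 to 49.4 and 41.7 to 46.1 FPKM, and were separate in the LncHSC-1 library, at 50.5 to 55.2 and 43.9 to 48.1 FPKM. The intervals of Il1b and Il1r2 overlapped in the control, as did those of Nlrp3, Il1rn and Il1a. Apart from Il18, Il1a and Casp1, granulocyte replicate 2 was at 0.981 to 1.03 times replicate 1. The replicates differed most for Il18, by 1.32-fold (0.981 to 1.75), and the interval left out equality for Casp1 alone, at 1.10-fold (1.04 to 1.17).

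Antisense genes overlap 3 members, and no source used here says whether reads were assigned by strand. Gm14023, opposite Il1a, was listed at 0.428 FPKM in granulocytes and at 0.227, 0.287 and 0.146 FPKM in the LncHSC-1, LncHSC-2 and control KSL libraries, close to Il1a itself. Gm14047, opposite Il1b, was at 1.13 FPKM in granulocytes and at 0.576, 0.880 and 0.671 FPKM in the LncHSC-1, LncHSC-2 and control KSL libraries. Gm16894, opposite Il1r2, was at 1.52 FPKM in granulocytes and at most 0.120 FPKM in a KSL library. The low values of Il1a in all libraries and of Il1b in KSL cells are therefore uncertain. So are the ratio of Il1b to Il1a and, in KSL cells, that of Il1b to Il1rn. The granulocyte levels of Il1b and Il1r2 are far above those of their partners.

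A fold between the cell kinds depends on how their tables are scaled. The main fold used FPKM as a share of all summed FPKM in a table, in which 2 features, the calprotectin genes, took 26.4% in granulocytes. On the deposited scale, 5044 genes were at 5 FPKM or more in both granulocytes and control KSL cells. Their median ratio of granulocytes to control KSL cells was 0.636, a shift of −0.65 on the log2 scale. A second fold was taken relative to that median gene. Of 8833 genes with a mean of 5 FPKM or more over granulocytes and control KSL cells, 19.9% were 1.5-fold or more higher in granulocytes and 63.8% were 1.5-fold or more lower on the share scale, against 28.5% higher and 52.9% lower relative to the median gene. Of the 10 members, 4 were 1.5-fold or more higher, 4 lower and 2 between on the share scale; relative to the median gene, 6 were higher, 1 was lower and 3 lay between. All members but Il1a passed that mean, and Il1b, Il1rn, Il1r2, Nlrp3 and Il18 passed only through the cell kind in which they were high, so these shares are a description.

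The 4 genes high in granulocytes were high on both scales. Against control KSL cells, Il1rn was 281-fold higher (178 to 474), Il1b 254-fold (191 to 346), Il1r2 115-fold (79.9 to 174) and Nlrp3 102-fold (73.1 to 146) on the share scale, with intervals from the reads of the control KSL library. Relative to the median gene these folds were 446, 404, 183 and 161. Il18 was lower in granulocytes on both scales, at 0.267 times (0.227 to 0.315) and 0.423 times the control KSL level. The other members changed side or call with the scale: Casp1 was at 0.630 and 1.00 times the control KSL level, Casp4 at 0.479 and 0.760 times, and Pycard at 0.439 and 0.696 times. Il1rap was at 1.36 and 2.16 times, and at 2.60 times on the share scale per the KSL length; Il1a was at 1.10 times (0.645 to 2.07) and 1.75 times. Cell kind, 5-fluorouracil, virus, culture and table format all differ between these samples and cannot be told apart. The sample labels used here gave an age for the granulocyte donors alone, so age may differ as well.

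Markers of other myeloid cells stood beside this contrast. The Gr1+ sample also held RNA of the monocyte, macrophage and dendritic list, in which 11 of 13 genes were at 5 FPKM or more and none at 0, with a summed level of 972 FPKM against 232 FPKM in control KSL cells. Ly6c2 was at 510 FPKM and Mpeg1 at 200 FPKM in granulocytes, and the monocyte receptor gene Csf1r at 57.8 FPKM. Not all genes of the list were higher there on the deposited scale: Cd74 was at 49.1 FPKM in granulocytes against 73.7 FPKM in control KSL cells, and H2-Eb1 at 12.9 FPKM against 16.3 FPKM. The part of these cells in the levels of Il1b, Il1rn, Il1r2 and Nlrp3 was not tested. In the KSL libraries, traces of those 4 members amounted to 0.311% to 1.08% of the granulocyte level. Of the 12 mature granulocyte markers, 11 were below all 4 members by that measure in each KSL library, with a median of 0.0692% in the LncHSC-1, 0.0499% in the LncHSC-2 and 0.0732% in the control KSL library; the exception was Csf3r, which reached 3.25% in LncHSC-1.

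**Figure D2:**
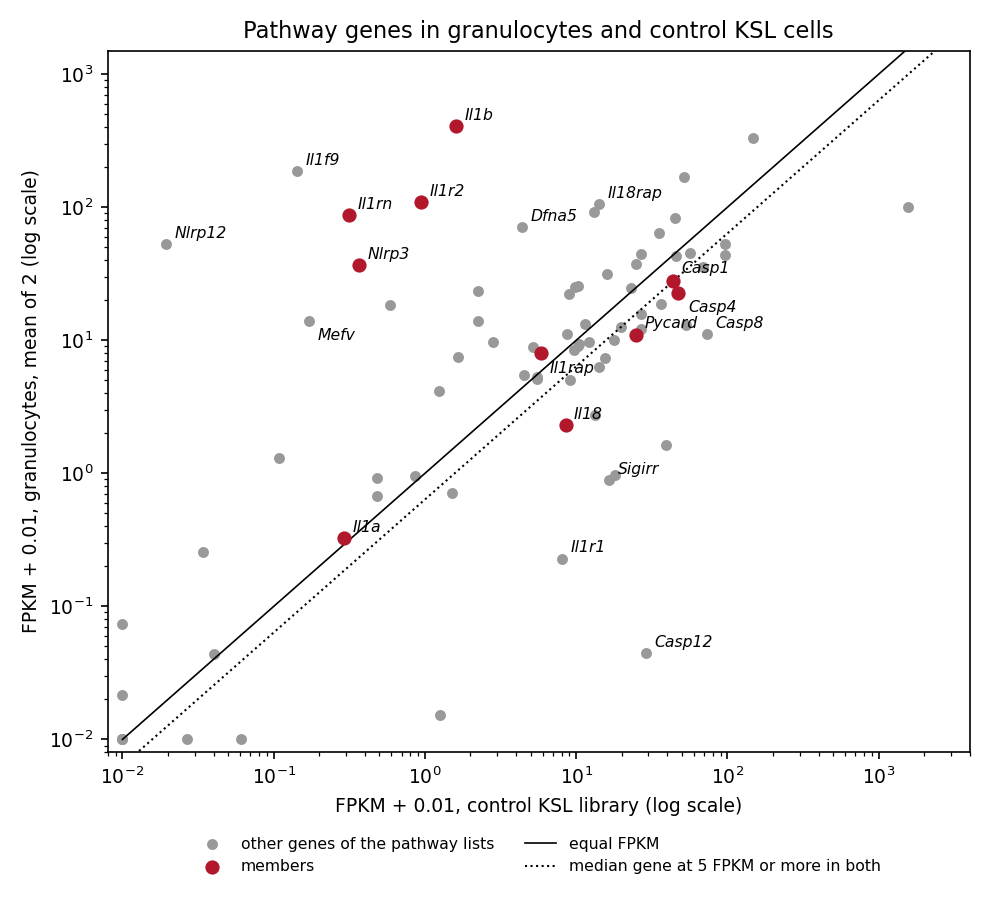
FPKM + 0.01 of the 80 pathway genes in granulocytes (mean of 2 technical replicates, vertical) against the control KSL library (horizontal), both on log axes; red points are the members, the solid line marks equal FPKM and the dotted line the median gene. Il1b, Il1rn, Il1r2 and Nlrp3 lie far above both lines, Il18 lies below both, and Casp1 lies on the dotted line.

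The wider pathway was described by 9 lists of genes holding 80 genes found in both kinds of table, 70 of them no members. In the interleukin-1 group the ligands went in both directions, and so did the receptors. Il1f9, an interleukin-36 family ligand, was at 186 FPKM in granulocytes, against 0.0911, 0.0562 and 0.133 FPKM in the LncHSC-1, LncHSC-2 and control KSL libraries. It resembled Il1b and Il1rn, while Il33 was listed at 0 in granulocytes. Il1r1, the signalling receptor for interleukin-1, was at 0.219 FPKM in granulocytes, against 7.06, 7.79 and 8.02 FPKM in the LncHSC-1, LncHSC-2 and control KSL libraries. The signalling receptor was therefore low where the decoy Il1r2 was high: relative to control KSL cells it stood at 0.0270 times on the share scale and 0.0429 times relative to the median gene. Sigirr, a membrane inhibitor of this receptor family, was likewise low in granulocytes, at 0.874 FPKM against 15.6, 15.6 and 16.6 FPKM in the LncHSC-1, LncHSC-2 and control KSL libraries. The interleukin-18 receptor chain Il18rap was the reverse of its ligand, at 105 FPKM in granulocytes against 12.4, 13.9 and 14.2 FPKM in the LncHSC-1, LncHSC-2 and control KSL libraries, and Il18r1 was at 9.76 FPKM against 2.61, 2.54 and 2.81 FPKM.

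Among receptor signalling genes, 13 of 14 were at a mean of 5 FPKM or more; 4 were 1.5-fold or more higher and 2 lower in granulocytes than in control KSL cells on both scales. Over all 8833 genes, 19.9% were higher and 52.9% lower on both scales, and a gene that reaches the mean through 1 cell kind alone has to differ, so counts of this kind describe the lists only. Myd88, the shared adaptor of interleukin-1 and Toll-like receptors, was at 83.7 FPKM in granulocytes, against 49.5, 47.7 and 44.8 FPKM in the LncHSC-1, LncHSC-2 and control KSL libraries. The kinase genes diverged: Irak2 was at 23.3 FPKM in granulocytes against 2.23 FPKM in control KSL cells, and Irak1 at 13.1 FPKM against 53.5 FPKM. Of 12 NF-kB and feedback genes, 4 were higher and 0 lower on both scales. Nfkbiz, an inducible co-factor of NF-kB, was at 13.9 FPKM in granulocytes against 2.23 FPKM in control KSL cells, and Nfkb1 at 35.7 FPKM against 68.7 FPKM.

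Among the other inflammasome sensors, Nlrp12 and Mefv resembled Nlrp3. Nlrp12 was at 53.0 FPKM in granulocytes, against 0 FPKM in the LncHSC-1 and 0.00947 FPKM in the control KSL library, where it had 1 estimated read. Mefv, which encodes pyrin, was at 13.9 FPKM in granulocytes, against 0.369, 0.176 and 0.161 FPKM in the LncHSC-1, LncHSC-2 and control KSL libraries. The DNA sensor gene Aim2 did not share that pattern, at 9.09 FPKM in granulocytes against 11.0, 10.9 and 10.3 FPKM in the LncHSC-1, LncHSC-2 and control KSL libraries. Nlrp6 had the reverse pattern at low levels, with 0.00524 FPKM in granulocytes against 1.24 FPKM in control KSL cells. No count is given for the sensors, since Nlrp3, Nlrp12 and Mefv reached a mean of 5 FPKM through the granulocytes alone and Nlrp6 did not reach it.

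The caspases and the proteins that act after them also divided. Casp12 was at 0.0347 FPKM in granulocytes, against 27.5, 25.3 and 29.0 FPKM in the LncHSC-1, LncHSC-2 and control KSL libraries, although it is a relative of Casp1 and Casp4. Casp8, which links death receptors to the inflammasome, was at 11.1 FPKM in granulocytes, against 74.3, 74.0 and 73.3 FPKM in the LncHSC-1, LncHSC-2 and control KSL libraries. Both were lower on both scales, so that of the 5 adaptor and caspase genes 2 were lower, 0 higher and Pycard, Casp1 and Casp4 passed 1.5-fold lower on the share scale alone. Of the 4 pyroptosis genes 3 were higher on both scales, namely Gsdmd, Dfna5 and Il16. The other gene, Ninj1, was at 52.6 FPKM in granulocytes against 96.1 FPKM in control KSL cells. That was 0.542 times on the share scale and 0.860 times relative to the median gene. Gsdmd, which encodes the pore-forming gasdermin cut by these caspases, was at 64.5 FPKM in granulocytes, against 39.8, 37.1 and 35.5 FPKM in the LncHSC-1, LncHSC-2 and control KSL libraries, and Dfna5, another gasdermin gene, was at 71.0 FPKM against 4.41, 5.08 and 4.36 FPKM. Of 10 regulators at a mean of 5 FPKM or more, 3 were higher and 3 lower on both scales. Over all 8833 genes these shares were 19.9% and 52.9%, so the counts for caspases, pyroptosis genes and regulators describe the lists only. Serpinb1a, an inhibitor of granulocyte proteases, was at 169 FPKM in granulocytes against 52.0 FPKM in control KSL cells, and Txnip at 333 FPKM against 148 FPKM.

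The 3 KSL libraries were then set side by side. With 1 library per group, they cannot show whether either long non-coding RNA alters these genes. Of the 10 members, 5 passed the floor of a mean of 5 FPKM over the 3 KSL libraries: Il18, Il1rap, Pycard, Casp1 and Casp4. In LncHSC-1 against control, 0 members were 1.5-fold higher, where 1.47% of 9153 features were, and 0 were 1.5-fold lower, where 0.754% were. In LncHSC-2 against control, 0 were higher and 0 lower, beside 1.04% and 0.732% of features. LncHSC-1 against LncHSC-2 gave the same counts of 0, beside 1.37% and 0.94%. At these shares, 5 genes without a call are near the background.

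Il18 was furthest from control among the members at the floor. It was at 11.3 FPKM in the LncHSC-1 and 8.98 FPKM in the LncHSC-2 library, against 8.51 FPKM in the control. The LncHSC-1 library was thus apart from the other two: the ratio to control was 1.33 (1.08 to 1.64) in LncHSC-1, from 236 against 152 estimated reads, and 1.05 (0.836 to 1.33) in LncHSC-2, and LncHSC-1 over LncHSC-2 was 1.26 (1.03 to 1.56). On the scale of log2(FPKM + 1), which understates the change of low genes, the difference from control was 0.37 in LncHSC-1 and 0.07 in LncHSC-2.

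The inflammasome effectors stayed close to control in both libraries. The ratio to control of Pycard was 1.09 (1.01 to 1.18) in LncHSC-1 and 1.08 (1.00 to 1.17) in LncHSC-2. That of Casp1 was 1.05 (0.978 to 1.12) in LncHSC-1 and 1.05 (0.977 to 1.13) in LncHSC-2. That of Casp4 was 1.12 (1.05 to 1.20) in LncHSC-1 and 1.07 (0.994 to 1.15) in LncHSC-2. These intervals all end below 1.5-fold in both directions; some leave out equality, which compares these libraries and not the conditions. The receptor chain Il1rap was on the other side of control, with ratios of 0.959 (0.859 to 1.07) in LncHSC-1 and 0.880 (0.781 to 0.991) in LncHSC-2. Both sets of ratios share the control library. Over the 5 members the median log2 difference from control was 0.12 in LncHSC-1 and 0.07 in LncHSC-2, against −0.02 and 0.00 over all 9153 features.

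The 5 members under the floor were thinly covered. Il1a had the largest ratio, with 30.1 estimated reads in LncHSC-1 and 9.89 in LncHSC-2 against 13 in the control: 1.99 (1.00 to 4.13) in LncHSC-1 and 0.805 (0.320 to 2.01) in LncHSC-2. Il1b was at 0.858 (0.560 to 1.31) in LncHSC-1 and 0.812 (0.511 to 1.28) in LncHSC-2. For Il1rn, Il1r2 and Nlrp3 the ratios to control were 0.833 to 1.26 in LncHSC-1 and 0.882 to 1.06 in LncHSC-2, and each interval included equality. The intervals of Il1b end below 1.5-fold higher in both libraries, as does that of Nlrp3 in LncHSC-1, at 1.38. A level 1.5-fold lower lay within the intervals of Il1b, Il1rn and Nlrp3 in both libraries.

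**Figure D3:**
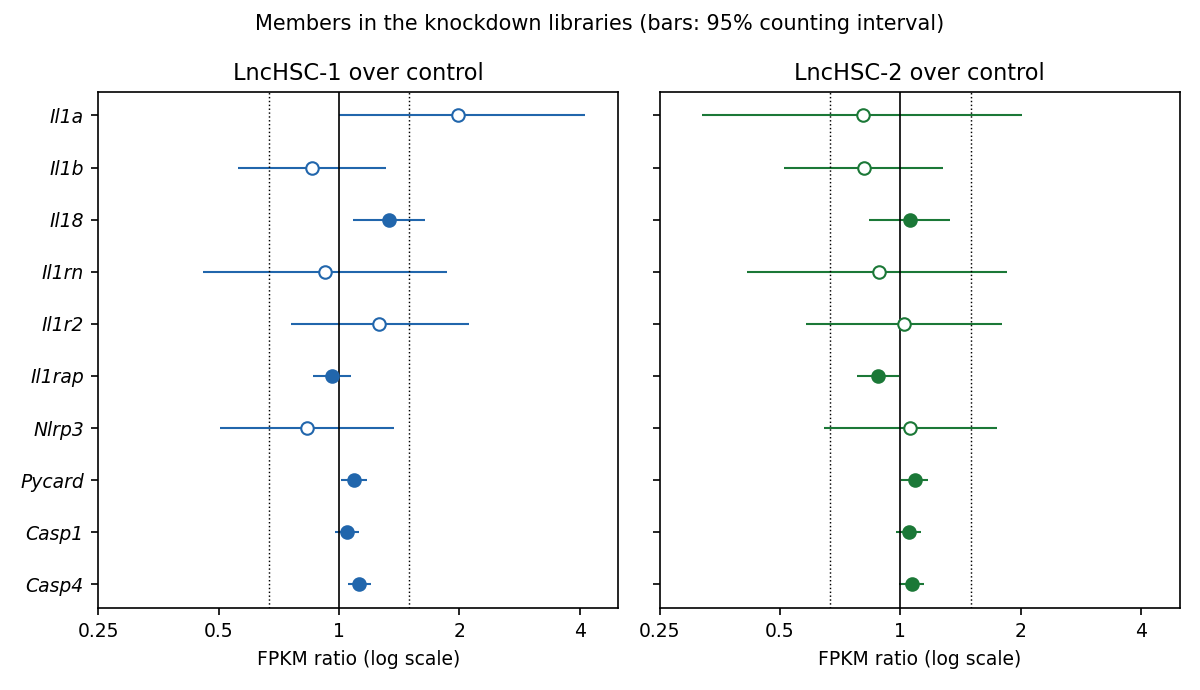
Ratio of FPKM in LncHSC-1 (left) and LncHSC-2 (right) to control for each member, on a log axis, with 95% counting intervals; filled points passed the floor of 5 FPKM, open points did not, and dotted lines mark 1.5-fold in either direction. Il18 in LncHSC-1, at 1.33, is the filled point furthest from 1, and the open points have the wide intervals.

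In the wider pathway 43 genes that are no members passed the floor. In LncHSC-1 against control, 1 of these was 1.5-fold higher, a share near the 1.47% of all features, and 0 were lower; in LncHSC-2 against control and in LncHSC-1 against LncHSC-2 there were 0 in either direction. The 1 gene was Il18bp, which encodes the secreted protein that binds and blocks interleukin-18. It was at 14.5 FPKM in the LncHSC-1 and 9.87 FPKM in the LncHSC-2 library, against 8.91 FPKM in the control, from 530, 293 and 280 estimated reads, and at 22.2 FPKM in granulocytes. The ratio of LncHSC-1 to control was 1.62 (1.40 to 1.88), with a log2 difference of 0.64, whereas the log2 difference of LncHSC-2 was 0.13. With a pseudocount of 5 FPKM the LncHSC-1 difference was 0.48, under 1.5-fold. The median log2 difference over the 48 pathway genes at the floor was 0.02 in LncHSC-1 and 0.01 in LncHSC-2. Below the floor, Irak2 was at 3.11, 2.69 and 2.23 FPKM in the LncHSC-1, LncHSC-2 and control KSL libraries.

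Summed levels of 9 lists of cell type markers were also compared. By sign alone, with no size rule, 6 were higher and 3 lower in LncHSC-1 than in the control. The lower ones were mature granulocyte, mast, basophil and eosinophil, and T and NK markers. Some of these differences were small. The primary granule sum was 235.3 FPKM in LncHSC-1 against 234.5 FPKM in the control, and the T and NK sum 55.6 against 56.4 FPKM. The megakaryocyte sum was 713 FPKM in LncHSC-1 and 684 FPKM in LncHSC-2 against 553 FPKM in the control. Of the monocyte, macrophage and dendritic list, 4 of 7 genes at the floor were 1.5-fold or more higher than control in LncHSC-1. By the same rule 0 were lower. Over all features at the floor, 1.47% were higher and 0.754% lower by that rule. None of the 13 genes of the list was at 0. Its summed level was 431 FPKM in LncHSC-1 and 252 FPKM in LncHSC-2 against 232 FPKM in the control. Ly6c2 was at 101 FPKM in LncHSC-1 and 42.3 FPKM in LncHSC-2, against 32.5 FPKM in the control. Of the B lineage list, all 4 genes at the floor were above control in LncHSC-1, 3 of them by 1.5-fold or more. None of its 6 genes was at 0, with sums of 79.7 FPKM in LncHSC-1 and 48.3 FPKM in LncHSC-2 against 47.3 FPKM in the control. The part of these cells in the values of Il18 and Il18bp was not tested.

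**Figure D4:**
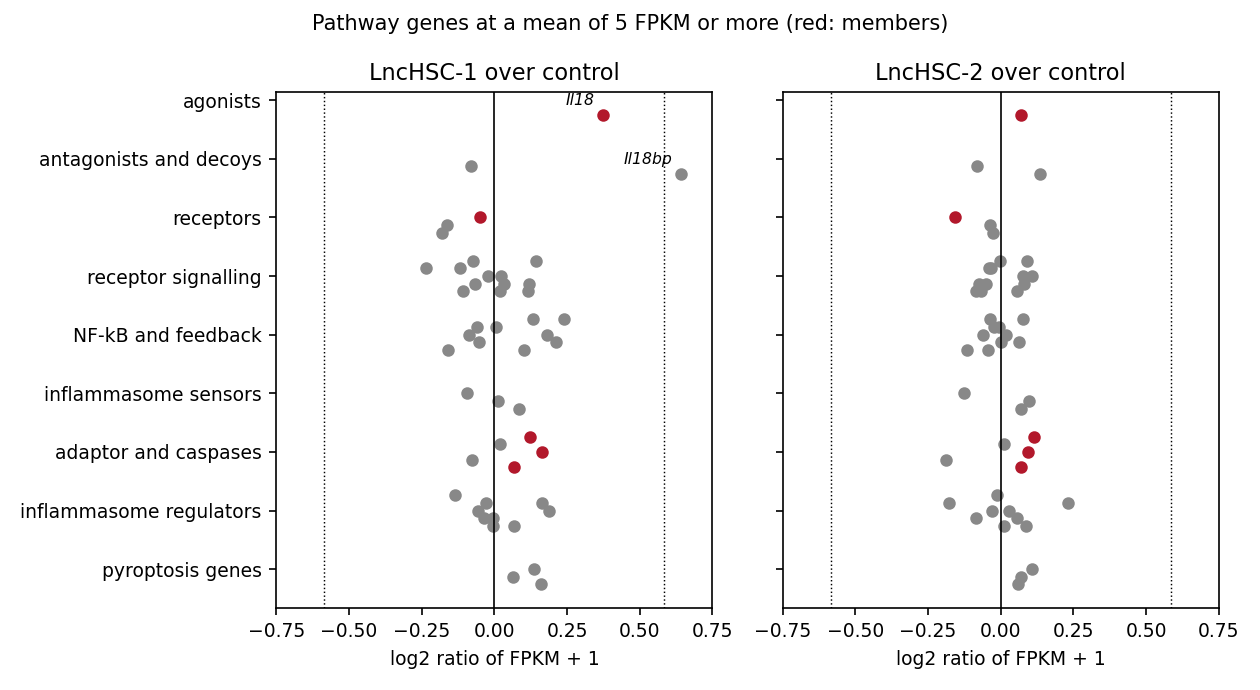
Log2 ratio of FPKM + 1 to control for the 48 pathway genes at a mean of 5 FPKM or more, by list, in LncHSC-1 (left) and LncHSC-2 (right); red points are members and dotted lines mark 1.5-fold. Il18bp in LncHSC-1, at 0.64, is the 1 point outside the lines.

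Genes with the most similar pattern were sought for 3 members among 18566 named genes, by the Euclidean distance of log2(FPKM + 1) over 4 conditions, the granulocyte mean and the 3 KSL libraries. This distance uses level as well as shape. Nearest to Il1b were Fpr2, Chi3l1 and Fpr1, at distances of 0.49, 0.60 and 0.70; Fpr2, a formyl peptide receptor gene, was at 424 FPKM in granulocytes and 1.16, 0.811 and 1.08 FPKM in the LncHSC-1, LncHSC-2 and control KSL libraries. Nearest to Casp1 were Anxa7, Ptpn18 and Atp6ap2, at distances of 0.093, 0.10 and 0.11. Nearest to Il1rap were Bmpr2, Hgf and Sik2, at distances of 0.12, 0.14 and 0.15, with the granulocyte level of Il1rap as deposited and not per the KSL length, so that these neighbours hold for the deposited scale only.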

How the data were processed

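The submitters' processing notes name mm9; no aligner, counter or strand setting was given in the sources used. Per the file headers, the authors deposited an FPKM value and a count column in every table. The granulocyte count column as deposited was treated as a score, whole numbers made from reads by a library factor (1.067 and 0.865) and rounded, and the granulocyte FPKM uses a divisor of 50 M reads. The KSL count column as deposited was treated as a signal: 91.9% to 92.2% of low values were whole multiples of 1 step (0.924 in LncHSC-1, 1.03 in LncHSC-2, 1.08 in control) within 0.1 read, and dividing by it gave the estimated reads. Granulocyte technical replicates were averaged (n = 1).

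FPKM was compared as log2(FPKM + 1) over features with a mean of at least 5 FPKM across the 3 KSL libraries, with 1.5-fold as a rule of size. No test across groups and no p-value was possible with 1 library per group, so no count test was run. Single-gene ratios carry no pseudocount and have exact 95% binomial intervals of estimated reads, and levels have Poisson intervals. These cover counting error only. The interval script was tested on simulated data. Folds of granulocytes over control KSL cells used FPKM as a share of the summed FPKM and, as an alternative, a median of ratios. The members, the gene lists and the rules for naming genes were chosen with earlier results of these data known. All members are named, with up to 4 further genes of a list that were highest in granulocytes or control KSL cells or furthest from control in a knockdown; Il33, Nfkbiz, Mefv, Nlrp6, Aim2, Cd74, H2-Eb1, Irak2, Il18r1, Csf3r, Mpeg1, Csf1r and the antisense genes were named after their values were seen. Alternatives changed the pseudocount, the floor, the scaling, the size rule and the granulocyte replicate. Python 3.11.15, pandas 2.3.3, numpy 2.4.6 and scipy 1.17.1 were used. B cell libraries were not analysed here.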

Additional observations from a re-analysis of the deposited data

How the results depend on the processing

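Among KSL libraries, no member at the floor passed the size rule under the alternatives run: pseudocounts of 0.1 and 5 FPKM, a floor of 1 FPKM or none, the count column as deposited or centred, rescaled FPKM, and a 2-fold rule. Of 165 log2 ratios under the pseudocounts, count columns and rescaling, 157 stayed within their counting interval and 8 moved further, all 8 in comparisons with LncHSC-2 and with the count column as deposited, whose median-of-ratios factors were 1.02 in LncHSC-1, 0.941 in LncHSC-2 and 1.04 in control. On that column Il1rap stood at −0.35 in LncHSC-2 against control, and the LncHSC-2 values of Il18, Il1r2, Nlrp3, Pycard, Casp1 and Casp4, all small, changed sign. The count of pathway genes 1.5-fold higher in LncHSC-1, Il18bp alone, was 0 with a pseudocount of 5 FPKM and 0 with a 2-fold rule, and 1 under the other alternatives, which were chosen after seeing the data. In granulocytes against control KSL cells, scaling to the median gene left 1 member lower in place of 4, placed Casp1 at 1.00 in place of 0.630, and moved 7 other folds. Leaving out either granulocyte replicate kept 4 members higher and 4 lower. Low reads limit Il1a, Il1b, Il1rn, Il1r2 and Nlrp3 in KSL cells. No paired analysis was possible because each KSL group has 1 library and the granulocyte replicates are technical.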
